A study of Homo sapiens with 12 samples.

Results

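The 10 genes described here are commonly listed as responsive to FOXO transcription factors: IRS2, TSC22D3, TXNIP, PIK3IP1, CITED2, BCL6, CCNG2, SESN1, SESN3 and FBXO32. They are 10 of 19775 genes with at least 1 probe set annotated to a single symbol on the array. Each gene was read from the probe set with its highest mean over the 12 arrays, and its other probe sets served as a check. The group was chosen by measured values, since IRS2 and TSC22D3 lead it for their difference between PML-RARA and GFP cells on these arrays. Their differences from GFP are therefore given as a description, as are those of the other 8 genes, and the calls of the fit for that contrast are printed as counts from which nothing is read.

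The arrays measured RNA of U937, a human line of monocyte-like cells first grown out of a histiocytic lymphoma, after electroporation with 1 of 3 plasmids. PML-RARA is the fusion protein of acute promyelocytic leukemia, which joins PML to the retinoic acid receptor alpha. PR2VR is read here as the form of it that resists proteases, after the series title, but the labels describe PR2VR and PRWT alike as wild type. PRWT is the unaltered fusion, and GFP cells carried the tag alone. Cells of all groups were sorted for GFP at 9 h or 6 h, so all share the electroporation and the sort, and no untransfected cells were analysed here. The groups were PR2VR, PRWT and GFP cells at 9 h and PR2VR, PRWT and GFP cells at 6 h, with 2 arrays each, numbered 1 and 2. Titles count hours after infection for both PML-RARA forms and after transfection for GFP, and any difference in procedure cannot be told apart from the fusions. The labels do not say whether replicates were separate transfections, so a p-value here reflects the spread among these arrays alone, and that spread may be technical.

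FOXO factors are transcription factors that insulin and growth factors hold in check. PI3K signalling activates AKT and SGK kinases, which phosphorylate FOXO proteins and move them out of the nucleus, and when this signal is low FOXO proteins bind DNA and raise genes that slow growth and the cell cycle. Several of those targets feed back on the pathway: IRS2 carries the insulin signal from the receptor to PI3K, while PIK3IP1 is a membrane protein that inhibits PI3K. In blood cells FOXO factors are known for restraining proliferation and supporting quiescence. TSC22D3, also called GILZ, is in addition a classical glucocorticoid-induced gene, and TXNIP, which binds thioredoxin and limits glucose uptake, is also induced by glucose through the MondoA and ChREBP factors.

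RefSeq promoter windows, which run from 250 bases before to 50 bases after a transcript start in GRCh38.p14, were on hand for 9 of the 10 genes, with 19 windows in all. The FOXO element GTAAACA, searched on both strands, occurred in windows of TSC22D3, TXNIP and PIK3IP1, or 3 of 9 genes, against 4.19% of 27305 genes with a window. By window it was in 3 of 19, against 3.42% of 35116. The 9 genes hold more windows per gene than all genes do, which favours a match when genes are counted. The variant CAAAACA, found in insulin response sequences, occurred in the IRS2 window only, against 6.05% of genes. A match describes these letters and is neither a bound site nor a cause of any value below. The stretches that hold a match are shown because they belong to the 4 genes that were above GFP in every set of arrays, with the motif in capitals on the transcript's strand; CAAAACA reads TGTTTTG and GTAAACA reads TGTTTAC where the match lies on the other strand.
IRS2, chr13:109786584-109786833, minus strand, GRCh38.p14: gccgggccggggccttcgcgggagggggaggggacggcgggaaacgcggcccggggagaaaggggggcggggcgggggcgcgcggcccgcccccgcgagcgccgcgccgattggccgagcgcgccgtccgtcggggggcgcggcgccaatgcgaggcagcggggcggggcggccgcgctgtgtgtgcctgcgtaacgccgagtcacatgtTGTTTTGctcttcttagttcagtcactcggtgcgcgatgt
TSC22D3, chrX:107717063-107717312, minus strand, GRCh38.p14: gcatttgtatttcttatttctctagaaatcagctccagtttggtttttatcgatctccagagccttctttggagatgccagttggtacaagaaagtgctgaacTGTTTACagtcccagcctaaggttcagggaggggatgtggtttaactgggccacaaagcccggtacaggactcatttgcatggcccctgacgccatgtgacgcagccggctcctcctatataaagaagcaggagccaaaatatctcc
TXNIP, chr1:145996580-145996829, minus strand, GRCh38.p14: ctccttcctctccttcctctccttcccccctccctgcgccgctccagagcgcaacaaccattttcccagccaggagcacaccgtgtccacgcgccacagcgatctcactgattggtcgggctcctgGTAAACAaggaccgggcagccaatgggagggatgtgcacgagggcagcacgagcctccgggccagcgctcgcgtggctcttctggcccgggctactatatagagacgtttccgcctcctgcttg
PIK3IP1, chr22:31292454-31292483, minus strand, GRCh38.p14: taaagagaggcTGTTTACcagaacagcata

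The IRS2 match began 40 bases before the transcript start, those of TSC22D3 and TXNIP 147 and 124 bases before, and that of PIK3IP1 17 bases after. The TSC22D3 match lay in 1 of its 4 windows and the array does not tell which start was used. TGTTCT, only part of the element that the glucocorticoid receptor binds, was in windows of BCL6 and PIK3IP1, against 17.54% of genes, and in none of TSC22D3. The whole element was not searched, nor were bases outside the windows, so this does not show whether TSC22D3 holds one. In PIK3IP1, TGTTCT began 25 bases after the start in 1 window, beside the FOXO element and without overlap, and 239 bases before the start in the other. The exact E-box CACGTG was in windows of CCNG2 and CITED2, against 8.77% of genes, and in neither TXNIP window. Looser forms of the E-box were not searched, so this does not show whether TXNIP holds an element that MondoA and ChREBP bind.

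**Figure D1:**
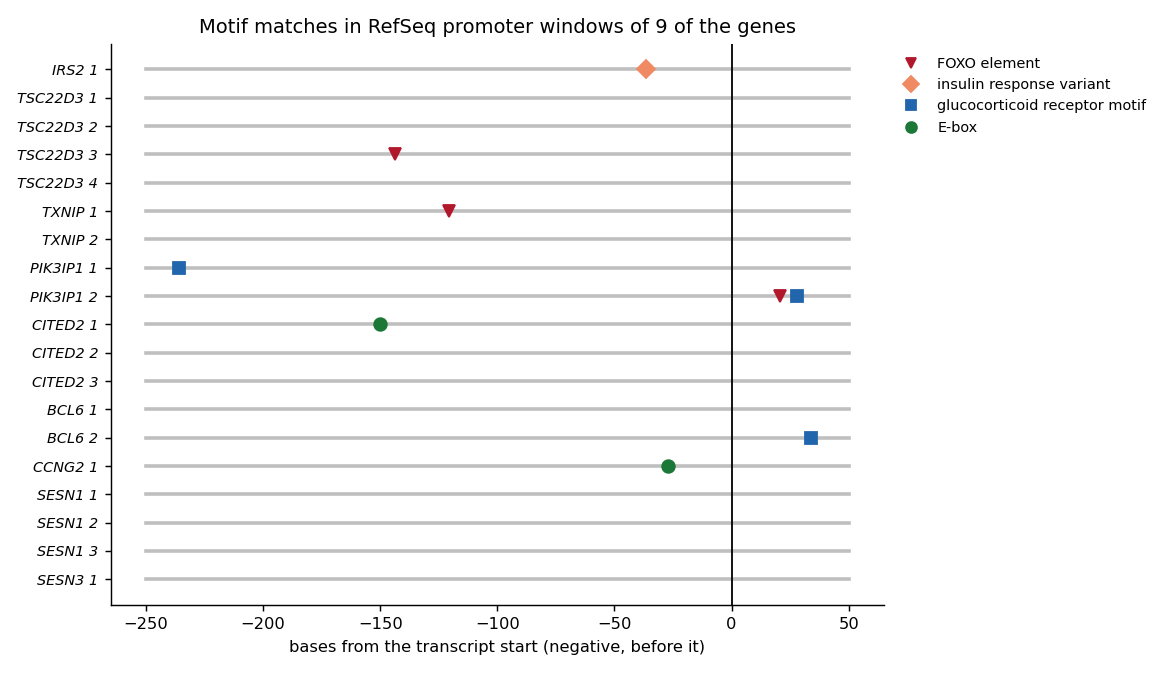
Positions of the 4 motifs in the 19 RefSeq promoter windows of 9 of the genes, in bases from the transcript start, with each grey line a window from 250 bases before to 50 after. The FOXO element appears in 1 window each of TSC22D3, TXNIP and PIK3IP1, and the insulin response variant in the window of IRS2. The glucocorticoid receptor motif is TGTTCT, only part of the element that this receptor binds.

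The deposited values are MAS5 signals, already scaled to a trimmed mean of 1500.2 on every array, and differences are of log2(signal + 62.5), which understates changes of dim genes. The number of arrays limits the precision. The transgene matched the labels: the RARA probe set read between 9281.2 and 41097.2 in PR2VR, between 11970.8 and 58985 in PRWT and between 48.2 and 309.2 in GFP cells. RARA was lower in PR2VR than in PRWT cells at each hour and number, as were 6.93% of genes. The part of this in the comparison of the forms was not tested. The 3 arrays of 1 hour and number are called a set, and the set of 9 h number 2 stood apart, with median signals of 387.6 to 435.8 against 238.8 to 292.4 elsewhere. It holds 1 array of each construct but has no counterpart at 6 h. Its 3' to 5' ratios were 2.21 to 2.75 for GAPDH and 7.79 to 10.67 for actin, against 3.82 to 12.9 and 12.49 to 58.22 elsewhere. Signal thus leaned more to the 3' end, and by varying amounts, on the other 9 arrays. The part of this lean in the differences between probe sets was not tested. The monocytic markers CTSG and LYZ were high on all arrays, at least 16938.6 and 3294.3, and 12 of 14 monocytic markers passed the signal filter, but MPO, SPI1, CD14 and FCGR1A had medians of only 66.2 to 301.5. Of markers of other cells, 2 of 7 for T cells passed, with summed signals of 890.7 to 1932.5 in PR2VR, 1015.9 to 2294.5 in PRWT and 620.2 to 2050.9 in GFP cells. For B cells 4 of 5 passed, for erythroid cells 3 of 4 and for epithelial cells and fibroblasts 4 of 8, with PAX5 at 2166.5 to 16215.1 and EPOR at 855.3 to 17059.1, and their part in the results was not tested. The 9 control probe sets for BioB, BioC, BioDn and CreX, absent from human RNA and called bacterial controls here, had a median of 37.7 and a highest value of 616. The Lys, Phe, Thr, Trpn and Dap controls given at the end are not among them. The highest value is far above the median, so a signal within this range does not show that a gene was absent.

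IRS2, the insulin receptor substrate that couples the receptor to PI3K, was higher with PML-RARA on every array. Its signal in PR2VR cells was 30408.3 and 14979.9 at 9 h and 20948.6 and 21321.6 at 6 h. In PRWT cells it was 20607.8 and 12540.0 at 9 h and 24538.5 and 15050.3 at 6 h, and in GFP cells 9554.2 and 4341.5 at 9 h and 9628.1 and 7593.6 at 6 h. The lowest of the 8 PML-RARA arrays, PRWT 9 h number 2, was thus above the highest GFP array, and the 4 PML-RARA groups overlapped except PR2VR at 6 h, which lay just above PRWT at 9 h. Both fusions averaged 1.37 ± 0.16 above GFP on the log2 scale (SE, n = 8 arrays against 4, in limma with each set as a block), a 2.59-fold higher level. The second IRS2 probe set differed by 0.95 and was higher with both fusions in 4 of 4 sets. In bulk RNA of sorted cells, a change in the share of cells and a change in RNA per cell cannot be told apart.

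TSC22D3, a leucine zipper protein that restrains inflammatory signalling, was ordered by construct within each hour and by hour throughout. In PR2VR cells its signal was 11217.8 and 10136.0 at 9 h and 30467.3 and 31587.0 at 6 h. In PRWT cells it was 8934.8 and 7292.2 at 9 h and 25553.0 and 20298.7 at 6 h, and in GFP cells 5520.0 and 4199.7 at 9 h and 14477.8 and 12948.2 at 6 h. None of the 6 groups overlapped its neighbour in the order PR2VR, PRWT and GFP at 6 h, then PR2VR, PRWT and GFP at 9 h. Both fusions averaged 0.95 ± 0.15 above GFP (log2, SE, block fit), with 1.16 for PR2VR and 0.73 for PRWT. A dimmer TSC22D3 probe set, with a median signal of 484.4, differed by 0.45 but had both fusions above GFP in only 1 of 4 sets. It is of a kind that can cross-hybridise, and the third probe set lay below the signal filter.

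TXNIP, an arrestin-like protein that binds thioredoxin, was above GFP with both fusions in every set, by little at 6 h. Its signal was 50828.5 and 18676.8 in PR2VR, 57313.3 and 16217.9 in PRWT and 27755.8 and 10148.4 in GFP cells at 9 h. At 6 h it was 23759.0 and 32142.9 in PR2VR, 28932.3 and 33125.5 in PRWT and 19815.6 and 30863.8 in GFP cells. The constructs overlapped at both hours, and at 9 h all 3 arrays numbered 1 were above all 3 numbered 2. The difference from GFP averaged 0.55 (log2), with an SE of 0.14 in the block fit and 0.39 without a block, and was 0.87 at 9 h and 0.24 at 6 h. In the fit without a block it ran from 0.19 to 0.92 with 1 array left out, the extremes being without GFP 9 h number 2 and without GFP 9 h number 1. Its other probe sets differed by 0.32 and 0.04, each with both fusions higher in 3 of 4 sets.

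PIK3IP1, the PI3K inhibitor, was also above GFP with both fusions in every set, but unevenly. Its signal was 1142.0 and 734.8 in PR2VR, 1910.7 and 722.9 in PRWT and 816.0 and 137.6 in GFP cells at 9 h. At 6 h it was 1258.7 and 1800.8 in PR2VR, 1415.8 and 1652.6 in PRWT and 479.5 and 1230.9 in GFP cells. The gap was widest in the set of 9 h number 2, where GFP read 137.6, under the signal filter of 168.9. That array and GFP 6 h number 1 lie within the range of the bacterial controls, so the size of the gap is uncertain there. The smallest gaps were 0.46 (log2) for PR2VR at 9 h number 1 and 0.41 for PRWT at 6 h number 2. The mean difference was 1.16 ± 0.26 (log2, SE, block fit), and in the fit without a block it was 0.62 without GFP 9 h number 2 and 1.69 without GFP 9 h number 1. The second probe set differed by 0.65, with both fusions higher in 2 of 4 sets, and the dimmest by -0.30.

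**Figure D2:**
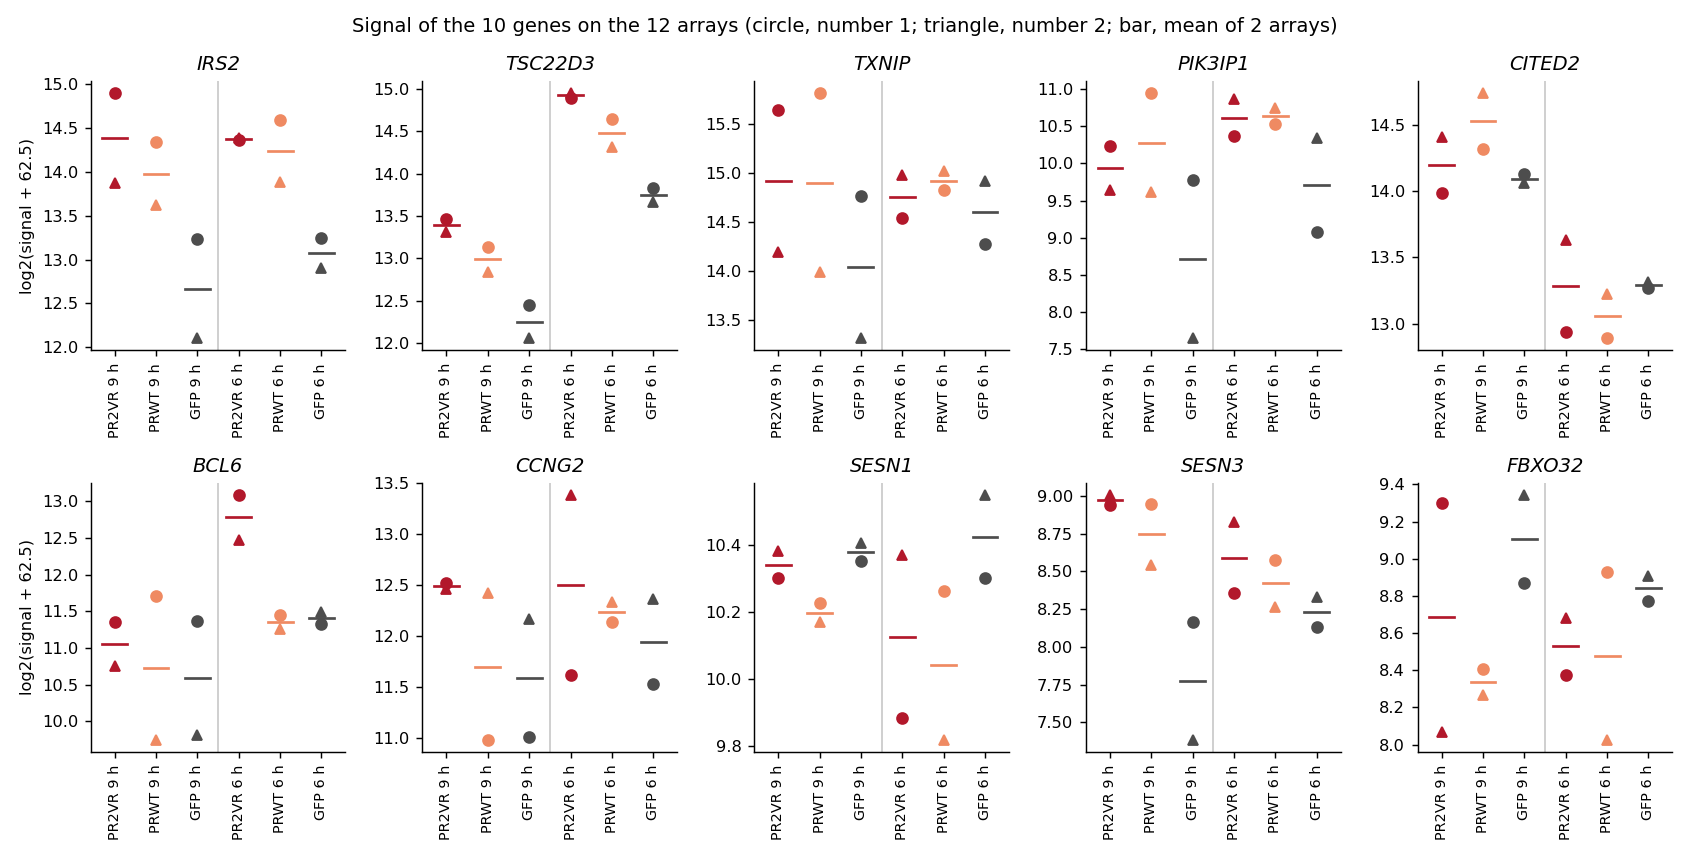
Signal of each gene on each array, as log2(signal + 62.5), with PR2VR, PRWT and GFP at 9 h left of the same at 6 h. Circles are arrays numbered 1, triangles those numbered 2 and bars the mean of 2 arrays. IRS2 in GFP cells lies below all PML-RARA arrays, TSC22D3 is ordered PR2VR, PRWT, GFP within each hour and is lower at 9 h, and CITED2 is higher at 9 h.

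The sestrins SESN1 and SESN3 are stress-induced proteins that inhibit mTORC1, and they lay on opposite sides of GFP. SESN3 signals were low, at 429.5 and 452.2 in PR2VR, 431.0 and 311.2 in PRWT and 224.9 and 104.4 in GFP cells at 9 h. At 6 h SESN3 read 265.6 and 391.2 in PR2VR, 319.4 and 245.6 in PRWT and 217.9 and 258.9 in GFP cells. Both forms lay above GFP without overlap at 9 h, PRWT overlapped GFP at 6 h, and the mean difference was 0.68 ± 0.29 (log2, SE, block fit). The SESN3 values lie within the range of the bacterial controls, whose highest was 616, and its 6 other probe sets, all below the filter, differed by between -0.60 and 0.51. SESN1 read between 881.2 and 1272.7 in PR2VR, with a median of 1230.9, between 840.0 and 1167.2 in PRWT, with a median of 1112.6, and between 1199.3 and 1437.9 in GFP cells. Both fusions were below GFP in all 4 sets, with a mean difference of -0.23 ± 0.21 (log2, SE, block fit).

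BCL6, a transcriptional repressor of the germinal centre, was high in PR2VR cells at 6 h, where it read 8640.5 and 5633.4. PRWT cells at 6 h read 2747.2 and 2393.1 and GFP cells 2518.0 and 2806.9, so that PR2VR stood above both without overlap. At 9 h BCL6 read 2555.1 and 1664.1 in PR2VR, 3275.0 and 798.5 in PRWT and 2585.3 and 842.0 in GFP cells, and all 3 groups overlapped. The difference from GFP averaged 0.91 for PR2VR and 0.04 for PRWT (log2), and that of both forms, 0.48, was 0.09 without GFP 9 h number 2 and 0.86 without GFP 9 h number 1. The second BCL6 probe set, with a median signal of 968.9, differed by 0.08 for each form.

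CCNG2, cyclin G2, which slows the cell cycle, read between 3085.4 and 10611.9 in PR2VR, between 1963.0 and 5415.3 in PRWT and between 2002.9 and 5211.5 in GFP cells. Only 2 of 4 sets had both forms above GFP, and the PR2VR signal was 2.89 times that of GFP at 9 h number 1 and 2.04 times at 6 h number 2, but 1.23 and 1.07 times in the other 2 sets. The 4 other CCNG2 probe sets differed by -0.27 to -0.04. FBXO32, the ubiquitin ligase subunit atrogin-1 known from muscle wasting, read between 206.1 and 568.6 in PR2VR, between 198.1 and 424.4 in PRWT and between 374.7 and 587.2 in GFP cells. Its mean difference was -0.47 ± 0.32 (log2, SE, block fit), and its 6 other probe sets differed by between -0.55 and 0.57. CITED2, which competes with HIF1 for the coactivator p300, differed from GFP by 0.08 ± 0.16 and had both forms higher in 1 of 4 sets.

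Of the 10 genes, 8 had a mean difference from GFP above 0 and the median was 0.52 (log2), beside a median of -0.02 and 47.6% above 0 among the 13959 genes tested. IRS2, TSC22D3, TXNIP and PIK3IP1 had both forms above GFP in 4 of 4 sets, which 2.74% of the genes tested also did, and SESN1 had both below, as did 2.76%. All 8 PML-RARA arrays exceeded all 4 GFP arrays for IRS2, as for 0.229% of genes. Without a block, limma passed 0 of the 10 genes at an adjusted p under 0.05 and 0.00716% of all genes, and 3 of the 10 had an unadjusted p under 0.05, as did 3.14% of all genes. With the set as a block 2 of the 10 passed, where 0.129% of all genes passed in the higher direction and 0.315% in either. With the set as a random block 2 of the 10 passed, where 0.107% did in the higher direction. These counts come from the contrast that chose the genes and describe the choice.

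**Figure D3:**
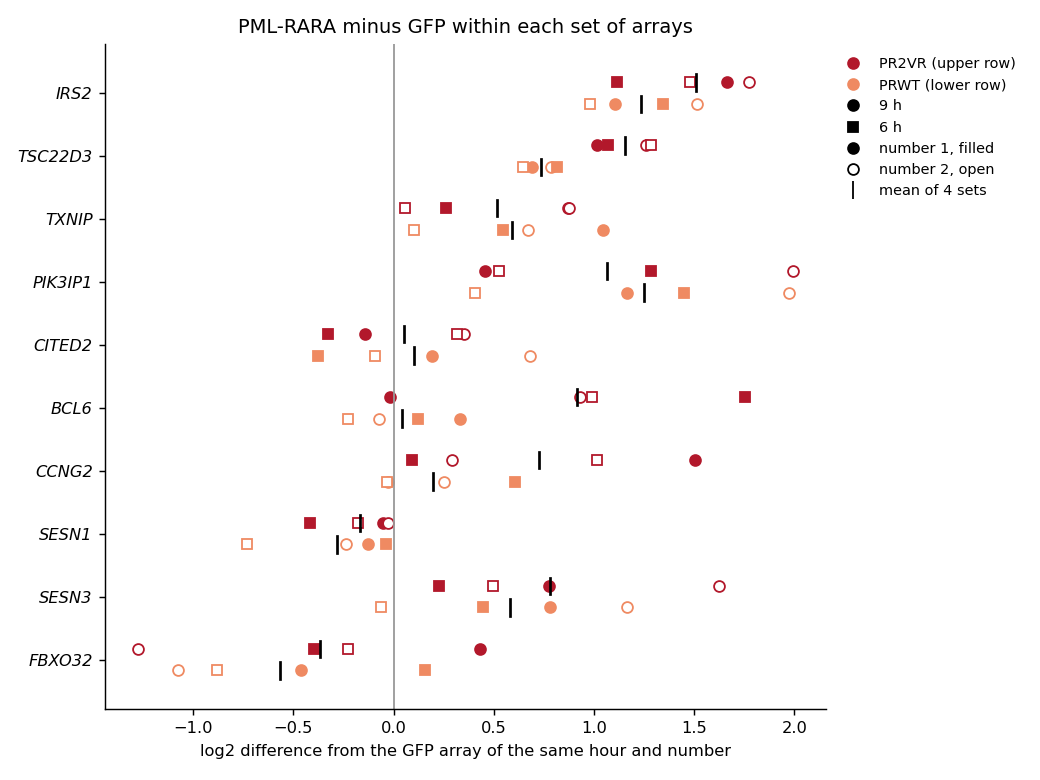
Difference of PR2VR (upper row) and PRWT (lower row) from the GFP array of the same hour and number, in log2 units, for each gene. Circles are 9 h and squares 6 h, filled symbols number 1 and open symbols number 2, and vertical marks the mean of 4 sets. All 8 points lie above 0 for IRS2, TSC22D3, TXNIP and PIK3IP1 and below 0 for SESN1.

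Whether the protease-resistant form acted differently from the wild-type fusion was read from PR2VR against PRWT. None of the 10 genes passed in limma (0 of 10), with or without the block, where 0.0% of the genes tested passed. At an unadjusted p under 0.05 there were 0 without the block and 2 with it, BCL6 and TSC22D3, where 1.55% and 6.86% of all genes lay under that value. TSC22D3 was higher in PR2VR than in PRWT in all 4 sets, by 0.25 to 0.64 (log2), as were 7.55% of genes, with a mean of 0.42 ± 0.17 (SE, block fit) and an adjusted p of 0.72. Its dimmer probe set that passed the filter did not repeat this, with -0.82 and -2.04 at 9 h and 0.11 and 1.88 at 6 h. BCL6 differed by 0.87 ± 0.26 (SE, block fit, adjusted p of 0.72), by 1.63 and 1.21 in the 2 sets of 6 h and by -0.35 and 1.00 in those of 9 h. In the fit without a block the mean was 0.39 without PRWT 9 h number 2 and 1.36 without PRWT 9 h number 1. Whether that gap changed with time was not tested. The second BCL6 probe set did not repeat the gap, with -0.70 and 0.25 at 6 h and 0.27 and 0.19 at 9 h. The 95% intervals with the block ran from -0.14 to 0.68 for IRS2, from -0.44 to 0.29 for TXNIP and from -0.84 to 0.48 for PIK3IP1, and these ranges hold both 0 and differences in either direction.

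TSC22D3 was lower at 9 h than at 6 h in all 3 constructs. Its difference of 9 h from 6 h averaged -1.51 ± 0.20 (log2, SE, n = 6 arrays per hour), with an adjusted p of 0.03 in limma, and all 6 arrays of 9 h were below all 6 of 6 h. This fit counts the arrays of a set as independent, although sets are nested in hours and their arrays correlated at 0.409 over all genes. Its SE and p-value, like those of the other genes between the hours, can therefore be too small. In this comparison 0.0358% of the genes tested passed in the lower direction, 0.043% in the higher and 0.0788% in either, and 0.666% had arrays of 9 h all below those of 6 h. The median of all genes was 0.13, and relative to it TSC22D3 fell by 1.64. Without the 9 h number 2 arrays the difference was -1.37 with an adjusted p of 0.91, and with the set as a random block the adjusted p was 0.35, and it was 0.082 without a variance trend. Of the 12 fits that left out 1 array, the 3 without GFP 9 h number 1, PRWT 6 h number 2 or PR2VR 6 h number 2 kept the call and the other 9 lost it, with adjusted p of 0.017 to 0.14. The dimmer TSC22D3 probe set differed by -0.41.

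CITED2 lay in the other direction and did not pass. Its signal was 16177.5 and 21713.0 in PR2VR, 20391.9 and 27284.4 in PRWT and 17835.0 and 17013.2 in GFP cells at 9 h. At 6 h it was 7792.4 and 12636.4 in PR2VR, 7527.1 and 9504.5 in PRWT and 9793.7 and 10134.8 in GFP cells. All 6 arrays of 9 h were above all 6 of 6 h, as for 1.25% of genes, and the difference was 1.06 ± 0.22 (log2, SE), with an adjusted p of 0.10 in limma, which was 0.044 without the PR2VR 6 h number 2 array. A second CITED2 probe set differed by 1.05 ± 0.41 (SE, fit without a block), but its arrays of 9 h and 6 h overlapped. BCL6 differed by -1.06 ± 0.36 (adjusted p of 0.24) and its second probe set by 0.29, of the opposite sign. IRS2 differed by -0.22 ± 0.28 (adjusted p of 0.73) between the hours.

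**Figure D4:**
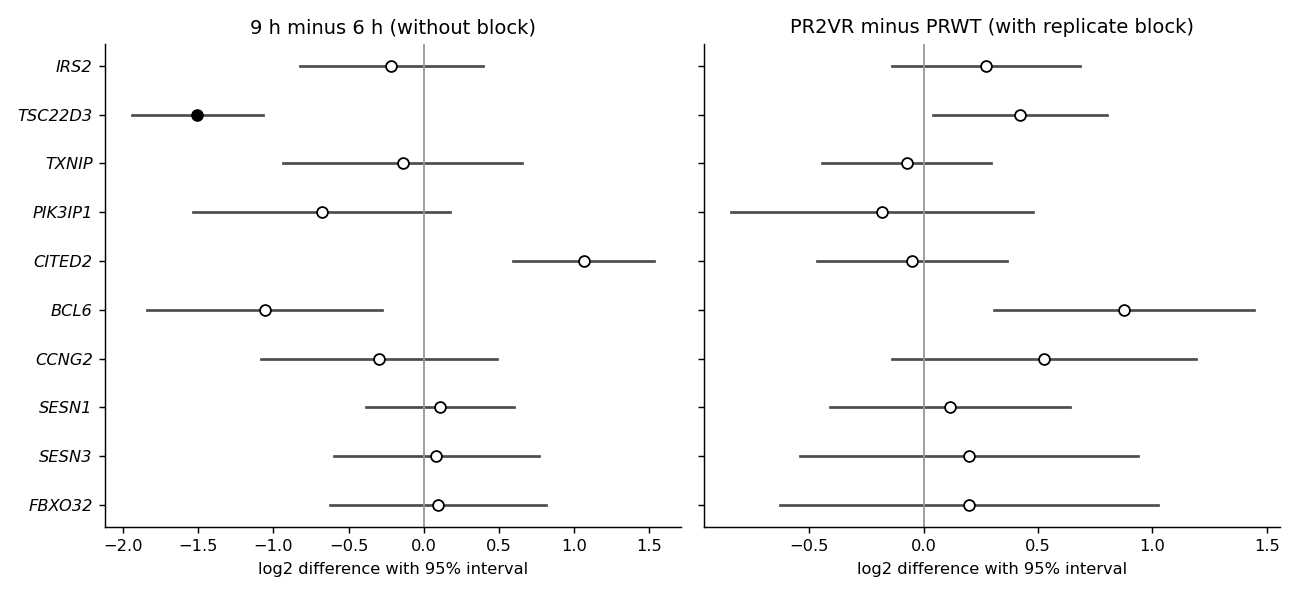
Mean log2 difference and its 95% interval for each gene, for 9 h minus 6 h in the fit without a block (left) and for PR2VR minus PRWT in the fit with the replicate block (right). The filled point is TSC22D3, which passed at an adjusted p of 0.03 in the fit that counts the arrays of a set as independent. It did not pass with the set as a random block. Every other point is open.

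The difference of the fusions from GFP was set against the hour by an interaction term. By limma 0 of the 10 genes passed and 0.0% of the genes tested, and 0 of the 10 had an unadjusted p under 0.05 in either fit, beside 0.759% of all genes without the block and 3.11% with it. For TSC22D3 the difference was 0.94 at 9 h and 0.95 at 6 h, and its change was -0.02 with a 95% interval of -0.67 to 0.64 (log2, block fit). For IRS2 it was 1.51 at 9 h and 1.23 at 6 h. The largest change was that of SESN3, 0.81 ± 0.58 (SE, block fit), with 1.09 at 9 h and 0.28 at 6 h, and TXNIP followed with 0.62 ± 0.29.

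The genes around the pathway were read from lists of pathway members. Of 25 measured genes of the insulin, PI3K and AKT pathway, 1 rose and 0 fell in the block fit, beside 0.129% and 0.186% of all genes. Of these 25, 19 lay above 0, beside 47.6% of all genes, with a median of 0.20 (log2). The gene that rose was SGK1, a kinase that phosphorylates FOXO3 and is itself induced by glucocorticoids. SGK1 read 15689.4 and 9097.6 in PR2VR, 13325.4 and 5897.7 in PRWT and 6785.4 and 3513.9 in GFP cells at 9 h. At 6 h it read 33538.3 and 26525.7 in PR2VR, 37035.6 and 12518.8 in PRWT and 15777.3 and 7442.2 in GFP cells. Both forms were above GFP in 4 of 4 sets, by a mean of 1.14 ± 0.19, with an adjusted p of 0.034 in limma with the block, 1.0 without it and 0.91 without the arrays of 9 h number 2. The call was kept when PR2VR 6 h number 1, PR2VR 6 h number 2 or PRWT 6 h number 2 was left out and lost when any other array was, with adjusted p of 0.0029 to 0.43. PIK3CG, INPP4B and PIK3CB, a catalytic PI3K subunit, a lipid phosphatase and a further catalytic subunit, differed by 0.72 ± 0.17, 0.54 ± 0.18 and 0.39 ± 0.16, with adjusted p of 0.15, 0.36 and 0.52.

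Of 18 FOXO factors and partners 0 passed in the block fit of limma, 4 had an unadjusted p under 0.05, as did 8.40% of all genes, and the median was 0.03 (log2). EP300, STK4, FOXO6 and SIRT1 differed by 0.57 ± 0.22, 0.45 ± 0.19, 0.59 ± 0.26 and 0.49 ± 0.22, with adjusted p of 0.50 to 0.59, and the FOXO6 probe set is of a kind that can cross-hybridise. EP300 and SIRT1 modify FOXO proteins by acetylation and deacetylation, and STK4 phosphorylates them. The FOXO genes themselves, picked out here for their role, did not pass: FOXO1 differed by -0.01 ± 0.27, FOXO3 by 0.29 ± 0.15 and FOXO4 by 0.06 ± 0.30 (adjusted p of 0.66 to 1.0). FOXO3 read between 14407.8 and 19522.4 in PR2VR, between 11758.5 and 13829.5 in PRWT and between 10072.6 and 14304.2 in GFP cells. These values are RNA and do not show where the FOXO proteins were or whether they were phosphorylated.

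Of 34 other measured genes listed as FOXO-responsive, 0 rose and 1 fell in the block fit, beside 0.129% and 0.186% of all genes. Of these 34, 20 lay above 0, beside 47.6% of all genes, with a median of 0.07 (log2). The gene that fell was CCR7, a chemokine receptor that FOXO1 sustains in T cells. CCR7 read between 297.4 and 580.5 in PR2VR, between 186.8 and 666.1 in PRWT and between 727.5 and 1845.8 in GFP cells. Both forms lay below GFP without overlap, as for 0.251% of genes, and PR2VR lay inside the range of PRWT. Of the 8 PML-RARA arrays, 7 were within the range of the bacterial controls, so the size of the CCR7 difference is uncertain. The CCR7 difference was -1.30 ± 0.22, with an adjusted p of 0.044 in limma with the block, 0.62 without it and 0.91 without the arrays of 9 h number 2, and the call was kept in 2 of the 12 fits that left out 1 array, those without PR2VR 6 h number 1 or number 2, with adjusted p of 0.013 to 0.51. TNFSF10, the death ligand TRAIL, differed by -0.57 ± 0.22, ERBB3, a receptor tyrosine kinase, by -0.89 ± 0.35 and KLF2, a transcription factor of quiescent cells, by 0.61 ± 0.28 (adjusted p of 0.50, 0.50 and 0.60). ERBB3 was within the range of the bacterial controls on 11 of 12 arrays.

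Glucocorticoid-responsive genes were listed because TSC22D3 is one of them. Of 17 measured, 1 rose, again SGK1, beside 0.129% of all genes, and the median was 0.03 (log2). NFKBIA, the inhibitor of NF-kB, differed by -0.80 ± 0.16 (adjusted p of 0.078), DUSP1, a phosphatase of MAP kinases, by 0.95 ± 0.20 (adjusted p of 0.10) and HSD11B1, which regenerates cortisol, by -0.49 ± 0.33 (adjusted p of 0.74). DUSP1 read 1778.0 to 5025.6 in PR2VR and 1177.6 to 3806.0 in PRWT cells, against 1192.6 to 1296.5 in GFP cells. Among 10 measured glucose-sensing genes 0 passed in limma with the block and 0 had an unadjusted p under 0.05, and ARRDC3, a relative of TXNIP, differed by -0.68 ± 0.33 (adjusted p of 0.62). MLX, the partner of MondoA and ChREBP, differed by 0.30 ± 0.17, MLXIP, which encodes MondoA, by 0.26 ± 0.19 and the hexokinase HK2 by 0.24 ± 0.20 (adjusted p of 0.68 to 0.81). Among 11 measured relatives of the 10 genes 0 passed in limma with the block and 1 had an unadjusted p under 0.05, as did 8.4% of all genes. That gene was IRS4 at -1.02 ± 0.40 (adjusted p of 0.50). IRS4 was within the range of the bacterial controls on 11 of 12 arrays, and HSD11B1 on all 12. SESN2, BCL6B and TSC22D2 differed by 0.36 ± 0.23, -0.48 ± 0.36 and 0.30 ± 0.29.

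**Figure D5:**
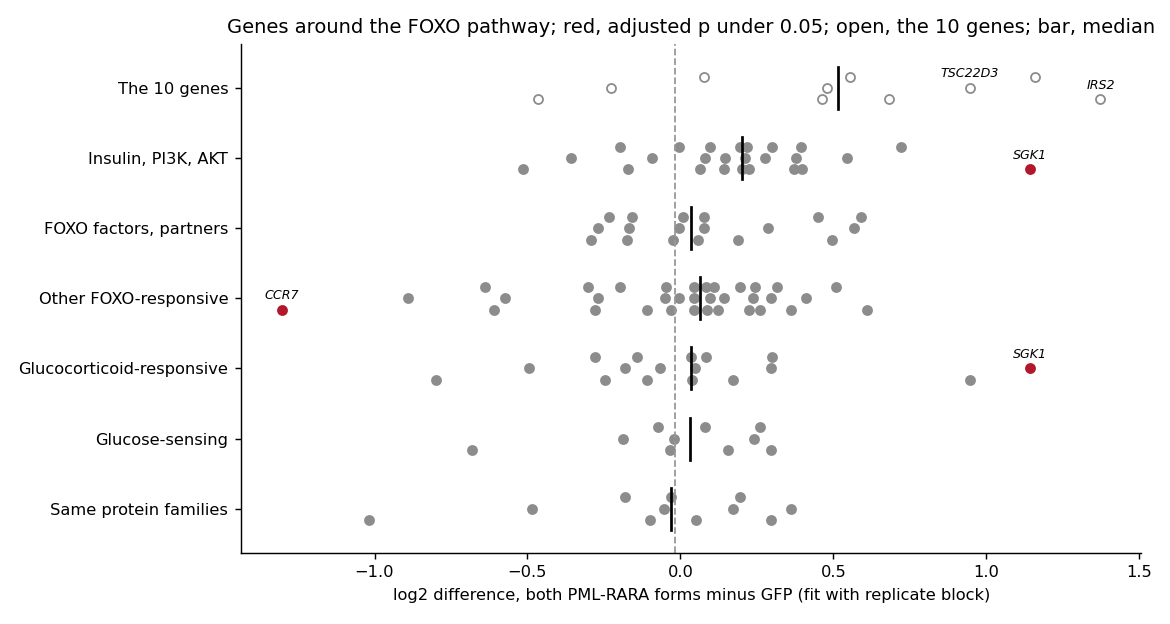
Log2 difference of both PML-RARA forms from GFP in the fit with the replicate block, with 1 point per gene, for the 10 genes and 6 lists. Red points passed at an adjusted p under 0.05, open points are the 10 genes, which carry no test here, black bars are medians, and the dashed line is the median of all genes at -0.02. SGK1, which stands in 2 lists, and CCR7 are the red points.

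The genes whose pattern was most like that of IRS2, by Pearson's r of log2 values over the 12 arrays after subtracting the mean of each set, were TCF7L2 (0.99), CYTIP (0.96), RALA (0.96), DLX2 (0.95) and GPR18 (0.95). Those most like TSC22D3 were TCF7L2 (0.98), PELI2 (0.98), SGK1 (0.98), EVI2B (0.97) and RC3H1 (0.96). IRS2 and TSC22D3, both chosen for their difference from GFP on these arrays, correlated with each other at 0.96. That choice favours a high r between them and with any gene that differs from GFP likewise. These values describe likeness over arrays that share 4 sets and 3 constructs, and TCF7L2, the gene nearest to both, differed from GFP by 1.17 ± 0.15 (log2, SE, block fit).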

How the data were processed

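RNA of 12 samples was hybridised to Affymetrix arrays, per the labels' protocols as biotin-labelled cRNA. The deposited intensity values are linear signals that the authors computed with MAS5, per the submitters' processing notes, with no version given in the sources used here. No further normalization was made, since every array had a trimmed mean (2% off each end) of 1500.2. No detection calls and no genome build were used.

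Of 54613 probe sets that are not controls, 41091 carry 1 symbol, 1801 several and 11721 are unnamed here. Signals were taken as log2(signal + 62.5), with 62.5 the 20th percentile of all values. The probe set with the highest mean stood for its gene (19775 genes), and the 13959 genes whose mean reached the 40th percentile of probe sets (a signal of 168.9) were tested. All 10 genes passed this filter.

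Differences were fitted in R 4.3.3 by limma 3.58.1, using all 12 arrays and a mean for each of the 6 groups, moderated variances with a trend on signal and Benjamini-Hochberg adjustment over the 13959 genes. A gene passed at an adjusted p under 0.05. The fit without a block is the main one. The same-numbered arrays of an hour deviated together (r of 0.151 to 0.36 at 6 h and 0.561 to 0.626 at 9 h, between the constructs' deviations from their group means), so numbers from the titles pair the arrays. Values marked as block fit, and the tests of the lists, come from the fit with the replicate block. For both fusions against GFP its SE was smaller than that of the main fit for each of the 10 genes. For PIK3IP1 the SE was 0.26 with the block and 0.42 in the main fit. Fits and calls were tested on simulated data. The 10 genes, the lists and the tests were chosen with earlier results of these data known. All 10 genes, RARA, up to 4 genes per list with the smallest unadjusted p in the block fit, and the 5 genes nearest to IRS2 and to TSC22D3 are named, and FOXO1, FOXO3 and FOXO4 were added after their values were seen. Promoter sequences and genome positions are from RefSeq, GRCh38.p14.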

Additional observations from a re-analysis of the deposited data

Results flagged for a closer look

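In 30 groups of 4 arrays, 1 per gene and construct, a test on the gap of the highest or lowest array marked 2, about as many as chance gives, which is 1 in 20 groups. BCL6 in GFP cells at 9 h number 2 lay apart from the other 3 GFP arrays by 0.908 of the range of all 4. SESN1 in PR2VR cells at 6 h number 1 lay apart by 0.837 of the range.

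Control probe sets for spiked bacterial RNA, which no comparison used, were bright only on the 3 arrays of 9 h number 2, 1 of each construct. The lowest of the 3 was 86050.7 for the Lys control, 31631.4 for Phe, 15760.8 for Thr and 6579.9 for Trpn, while the other 9 arrays did not exceed 297.9, 231.9, 126.7 and 160.7. The Dap control ran from 43.1 to 95.5 on these 3 arrays and did not exceed 149.2 on the others. Their part in the difference of 9 h from 6 h was not tested.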

How the results depend on the processing

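With the replicate block, 2 of the 10 genes passed for both fusions against GFP and 2 for PR2VR against GFP, and 2 each with the set as a random block, against 0 in the main fit, for the contrast that chose the genes. Those 2 became 0 without a variance trend and 0 without the arrays of 9 h number 2, and ranged from 0 to 4 and from 0 to 3 when 1 array was left out. For 9 h against 6 h no paired fit was possible because sets are nested in hours. The count of 1, TSC22D3, became 0 without a variance trend, with the set as a random block and without the arrays of 9 h number 2, and ranged from 0 to 2 with 1 array left out. The TSC22D3 difference was -1.51, -1.51 and -1.37 under these 3 settings (adjusted p of 0.082, 0.35 and 0.91) and ran from -1.57 to -1.44 with 1 array left out. The causes were not tested. The TXNIP interaction changed sign when 1 array was left out (-0.10 to 1.35). Median centring moved the median of all genes to -0.15 for 9 h against 6 h, and TSC22D3 then differed by -1.79 (adjusted p of 0.047). The random block, and block fits without the trend or an array, were chosen after seeing the data. Over all alternatives 705 values kept their direction and side of the threshold, 44 moved, 38 no longer passed, 1 newly passed and 1 reversed. Groups of 2 arrays limit what could be detected, and signals of SESN3 and FBXO32, PIK3IP1 on 2 GFP arrays and CCR7 on 7 PML-RARA arrays lie within the range of the bacterial controls.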
